A study of Mus musculus with 24 samples.

Results

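The 10 mouse genes described here encode the transforming growth factor beta (TGF-beta) ligands (Tgfb1, Tgfb2 and Tgfb3), their receptors (Tgfbr1, Tgfbr2 and Tgfbr3) and the latent TGF-beta binding proteins (Ltbp1, Ltbp2, Ltbp3 and Ltbp4). They were chosen by name, as the rows of a gene count table that carry these symbols, and are 10 of its 35727 genes. All 10 passed the filter on low counts that left 14804 genes for testing. Bulk RNA sequencing was done on mouse cells with heart as the tissue, grown in EGM2, an endothelial growth medium. The labels name 4 conditions, SEG, Sox17, Erg and control, with 3 libraries of each at day 3 and 3 at day 7, which makes 24 libraries in 8 groups. The control cells are labelled fibroblast and the cells of the other 3 conditions iEC. Sox17 and Erg are transcription factors of the SOX and ETS families that are active in endothelial cells. The labels do not spell out SEG or iEC, the way the factors were delivered, the strain or age of the mice, or whether replicates are separate animals or cultures. P-values therefore cover only the variation among the libraries, and that could be technical.

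TGF-beta is secreted as a latent complex, in which the mature growth factor stays bound to its own propeptide and, in most cells, to a latent binding protein that anchors it in the extracellular matrix. Once released, it binds the type II receptor Tgfbr2, which recruits and phosphorylates the type I receptor Tgfbr1, and SMAD proteins carry the signal to the nucleus. In fibroblasts this pathway is known for driving smooth muscle actin and other contractile genes, and in endothelial cells for endothelial-to-mesenchymal transition.

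Transcripts of both named factors were counted in the SEG libraries. Erg was at 1254 to 1281 CPM (counts scaled to a common library total) in SEG and 7039 to 7133 CPM in Erg libraries at day 3, and no Sox17 or control library of either day had more than 3 Erg reads. Sox17 was at 955 to 1054 CPM in SEG and 1549 to 1653 CPM in Sox17 libraries at day 3, and at 0 reads in all 6 control libraries. The libraries held 18794422 to 44586227 counts. CPM values are scaled by trimmed mean of M-values (TMM) factors. All 8 endothelial markers rose in SEG cells on both days (20% and 22.5% of all genes tested rose at day 3 and day 7). In Sox17 cells 6 rose (20.8% and 29.5%) and in Erg cells 7 (22.6% and 23.7%). Their summed level at day 7 was 1983 to 2298 CPM in SEG, 148 to 375 CPM in Sox17, 147 to 158 CPM in Erg and 2.55 to 3.23 CPM in control libraries. Of 8 fibroblast markers at day 7, 1 rose and 6 fell in SEG cells (22.5% and 21.8% of all genes tested). All 8 fell in Sox17 and in Erg cells (25% and 24.8% of all genes tested fell). Their median log2 change was -2.45 in SEG, -3.05 in Sox17 and -1.32 in Erg cells. The summed level of these markers was 16758 to 18356 CPM in SEG, 5459.7 to 8729.97 CPM in Sox17, 8749 to 9768 CPM in Erg and 21158 to 22763 CPM in control libraries at day 7. The most abundant markers weigh most in such a sum. The part of these differences in the values of the 10 genes was not tested. Replicate 1 of the Sox17 day 7 group and replicate 1 of the SEG day 7 group stood apart from the rest, with 7.49% (Sox17) and 5.20% (SEG) of counts on ribosomal protein genes, against 3.04% to 4.74% in the other 22 libraries. The day 7 changes of the 10 genes against control and their calls between the days are also given without them.

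Since Erg and Sox17 are DNA-binding factors, the 250 bases before 5 of the RefSeq start sites of Tgfb2, Ltbp4 and Ltbp1 are shown here, 3 genes with large changes that differ in size or direction between the factors (build GRCm38.p6, written 5′ to 3′ on the gene's strand). Of the 10 genes, 8 had such a sequence, with 12 start sites between them, and Tgfb3 and Tgfbr3 had none in the table used. Capitals mark an ETS core (GGAA or, on the other strand, TTCC) or a SOX core (ACAAT or ATTGT). The single Tgfb2 window lies at chr1:186705990-186706239 on the minus strand. The Ltbp4 windows shown lie at chr7:27337613-27337862 and chr7:27333649-27333898 on the minus strand. Another, at chr7:27333664-27333913, overlaps the second of these and is not shown. The Ltbp1 windows lie at chr17:75005279-75005528 and chr17:75178531-75178780 on the plus strand. A stretch of bases just after each start was looked for in the gene's annotated transcripts (GENCODE). It was in 0 transcripts for both Ltbp1 windows, and in 1 or 2 for the Tgfb2 and Ltbp4 windows, so the Ltbp1 starts lack that check.
Tgfb2 start 1: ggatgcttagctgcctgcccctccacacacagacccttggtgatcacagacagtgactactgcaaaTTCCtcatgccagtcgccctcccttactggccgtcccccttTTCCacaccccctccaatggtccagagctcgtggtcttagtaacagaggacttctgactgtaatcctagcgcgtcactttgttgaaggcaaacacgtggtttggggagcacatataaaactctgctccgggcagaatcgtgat
Ltbp4 start 1: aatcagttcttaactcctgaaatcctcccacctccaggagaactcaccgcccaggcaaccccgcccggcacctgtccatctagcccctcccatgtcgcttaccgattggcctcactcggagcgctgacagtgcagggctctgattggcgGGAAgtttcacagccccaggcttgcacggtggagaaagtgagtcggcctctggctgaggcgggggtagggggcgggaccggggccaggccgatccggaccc
Ltbp4 start 2: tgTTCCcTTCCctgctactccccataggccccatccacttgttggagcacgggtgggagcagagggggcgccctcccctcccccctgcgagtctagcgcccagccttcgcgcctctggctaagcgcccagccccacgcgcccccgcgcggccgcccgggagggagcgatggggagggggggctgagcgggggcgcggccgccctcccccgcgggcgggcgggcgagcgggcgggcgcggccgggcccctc
Ltbp1 start 1: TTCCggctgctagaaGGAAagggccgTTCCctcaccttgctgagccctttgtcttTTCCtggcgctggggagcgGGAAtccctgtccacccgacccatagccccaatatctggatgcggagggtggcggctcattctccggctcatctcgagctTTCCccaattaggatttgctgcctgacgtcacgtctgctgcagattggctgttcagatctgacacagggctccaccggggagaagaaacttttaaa
Ltbp1 start 2: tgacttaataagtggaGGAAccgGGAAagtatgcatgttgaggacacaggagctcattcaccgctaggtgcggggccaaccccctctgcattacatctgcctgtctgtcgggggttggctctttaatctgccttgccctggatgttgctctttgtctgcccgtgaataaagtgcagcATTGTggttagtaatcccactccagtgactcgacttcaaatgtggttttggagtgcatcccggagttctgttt
The Tgfb2 window holds 2 ETS cores and no SOX core. The 3 Ltbp4 windows hold 1, 2 and 2 ETS cores, and the Ltbp1 windows 6 and 2, with 1 SOX core in the second. Among all 32851 windows of this length, 93.4% hold an ETS core, with a median of 3, and 27.7% hold a SOX core. The longer ETS sequence CCGGAAGT, present in 2.88% of all windows, is in no window of the 8 genes on either strand. A match describes these letters alone and says nothing of binding.

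Per kilobase of merged exon, which allows levels of different genes to be compared, Ltbp4 was the highest of the 10 genes in SEG and Sox17 cells on both days and in control cells at day 7. It averaged 755 ± 73.0 CPM per kilobase in SEG and 86.5 ± 2.15 in control cells at day 7 (SD, n = 3 each). In Erg cells Ltbp3 was higher than Ltbp4, at 80.4 ± 3.46 against 69.2 ± 1.54 CPM per kilobase at day 7. Among the receptors Tgfbr2 was the highest in all 8 groups, and among the ligands Tgfb1 or Tgfb3 was, except that Tgfb2 had the highest mean in Sox17 cells at day 7. Tgfb2 made up 41.0% ± 10.5 of the summed ligand level in Sox17 and 8.17% ± 0.147 in control cells at day 7, with 29.1% in the outlying Sox17 library and 45.2% and 48.8% in the other two. Ltbp4 made up 90.5% ± 0.360 of the summed latent binder level in SEG and 50.6% ± 0.134 in control cells at that day.

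**Figure D1:**
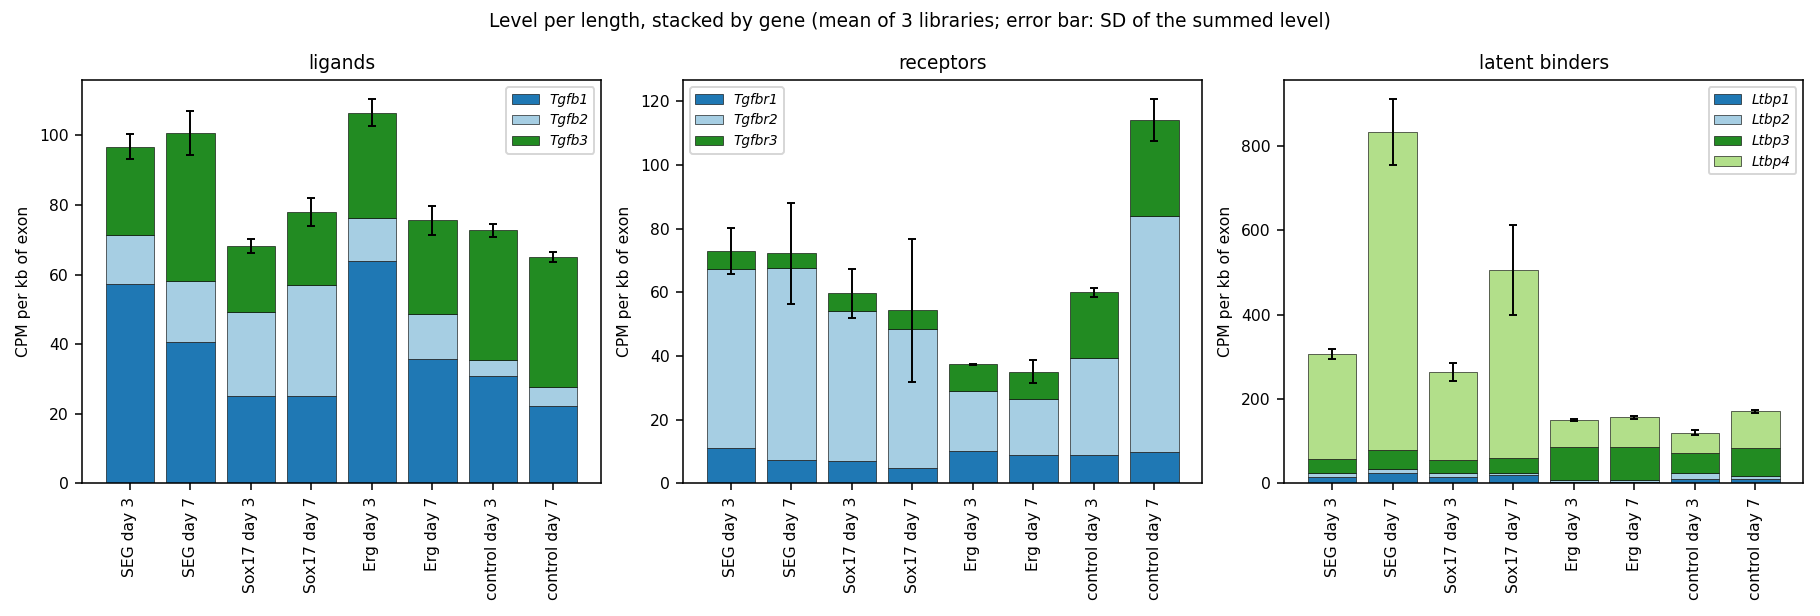
Mean level per kilobase of exon (CPM per kilobase, y axis) of the ligands, receptors and latent binders in the 8 groups (x axis), stacked by gene, with the SD of the summed level over 3 libraries as error bar. Ltbp4 takes 90.5% of the latent binder level in SEG and 50.6% in control cells at day 7, and Tgfb2 takes 41.0% of the ligand level in Sox17 and 8.17% in control cells.

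Tgfb1 (ENSMUSG00000002603, chr7:25687002-25705077), the best known of the ligand genes in fibrosis (coordinates here and below are in mm10), was higher in SEG and Erg cells than in control cells on both days, and no change was called in Sox17 cells. At day 3 Tgfb1 was 301, 283 and 283 CPM in the SEG libraries, 121, 128 and 129 CPM in the Sox17 libraries and 331, 325 and 309 CPM in the Erg libraries, against 154, 151 and 162 CPM in the control libraries. At day 7 Tgfb1 was 242, 181 and 191 CPM in the SEG libraries, 186, 98.8 and 96.3 CPM in the Sox17 libraries and 178, 157 and 205 CPM in the Erg libraries, against 115, 106 and 116 CPM in the control libraries. Every SEG and Erg library lay above every control library of its day, and the Sox17 libraries lay below control at day 3 and on both sides of it at day 7, where replicate 1 was the high one. The log2 change against control in SEG cells was 0.89 ± 0.18 (adjusted p = 0.000354) at day 3 and 0.87 ± 0.18 (adjusted p = 0.000404) at day 7. Here and below a change is a log2 value ± SE, with an adjusted p from edgeR's quasi-likelihood test (Benjamini-Hochberg over all 14804 genes). In Erg cells it was 1.04 ± 0.18 (adjusted p = 5.85e-05) at day 3 and 0.68 ± 0.18 (adjusted p = 0.00320) at day 7. In Sox17 cells it was -0.31 ± 0.17 (adjusted p = 0.177) at day 3 and 0.18 ± 0.17 (adjusted p = 0.404) at day 7. In bulk RNA, more RNA per cell and more cells of a type that uses the gene cannot be told apart.

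The Sox17 value at day 3 came with an adjusted p of 0.000316 when the 6 libraries compared were fitted alone, and the day 7 value turned to -0.17 (adjusted p = 0.0590) without both outlying libraries. Most macrophage markers were also higher in Erg than in control cells at day 7: 11 of 12 rose and 1 fell (23.7% and 24.8% of all genes tested). Their summed level was 779 to 799 CPM in Erg and 155 to 201 CPM in control libraries. At day 3 that sum was 179.9 to 196 CPM in Erg and 128 to 129 CPM in control libraries. Of the markers 4 were then higher and 1 lower (22.6% and 23.5% of all genes tested), and Tgfb1 was 2.06-fold higher. From day 3 to day 7 in Erg cells all 12 markers rose (15.6% of all genes tested rose), while Tgfb1 fell (-0.84 ± 0.18, adjusted p = 0.00108). In SEG cells at day 7, 5 of the 12 markers rose and 2 fell against control (22.5% and 21.8% of all genes tested), with a sum of 225 to 304 CPM. Their part in the Tgfb1 values was not tested.

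Tgfb2 (ENSMUSG00000039239, chr1:186622792-186705989), the ligand gene that mice need to form heart valve cushions, rose in all 3 conditions on both days, and most in Sox17 cells. At day 3 Tgfb2 was 81.8, 75.0 and 85.2 CPM in the SEG libraries, 161, 138 and 124 CPM in the Sox17 libraries and 74.3, 72.4 and 71.6 CPM in the Erg libraries, against 29.0, 25.0 and 23.8 CPM in the control libraries. At day 7 Tgfb2 was 89.6, 103 and 113 CPM in the SEG libraries, 138, 194 and 219.6 CPM in the Sox17 libraries and 74.3, 78.7 and 71.0 CPM in the Erg libraries, against 31.5, 30.5 and 30.4 CPM in the control libraries. All 18 libraries with a factor lay above all 6 control libraries. In Sox17 cells Tgfb2 was 5.45-fold higher than in control cells at day 3 (log2 change 2.45 ± 0.14, adjusted p = 1.5e-11) and 5.97-fold at day 7 (2.58 ± 0.14, adjusted p = 4.85e-12). In SEG cells it was 3.11-fold higher at day 3 (1.64 ± 0.14, adjusted p = 5.13e-09) and 3.30-fold at day 7 (1.72 ± 0.14, adjusted p = 1.76e-09). The Erg cells had 2.81-fold (1.49 ± 0.14, adjusted p = 1.98e-08) and 2.42-fold (1.28 ± 0.13, adjusted p = 1.55e-07) the control level. SEG cells were below Sox17 cells on both days, with log2 differences of -0.81 ± 0.13 (adjusted p = 6.8e-05) and -0.85 ± 0.13 (adjusted p = 2.62e-05). In the order of group means, neighbours overlapped among SEG day 3, Erg day 7 and Erg day 3. An annotated antisense gene, Gm29491, covers 2.14% of the Tgfb2 exons, and the strand setting of the counting is not given in the sources used here.

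Tgfb3 (ENSMUSG00000021253, chr12:86056745-86079041), a ligand gene needed for palate fusion, was lower in all factor groups except SEG cells at day 7. At day 3 Tgfb3 was 91.4, 84.3 and 83.7 CPM in the SEG libraries, 63.3, 61.1 and 67.0 CPM in the Sox17 libraries and 105, 104 and 96.3 CPM in the Erg libraries, against 119.8, 129 and 129.97 CPM in the control libraries. At day 7 Tgfb3 was 147, 138 and 146 CPM in the SEG libraries, 72.7, 71.3 and 70.1 CPM in the Sox17 libraries and 89.6, 92.0 and 91.7 CPM in the Erg libraries, against 129, 125 and 126 CPM in the control libraries. All factor libraries were below control libraries except the SEG libraries at day 7, which were above them. The log2 change at day 3 was -0.55 ± 0.06 (adjusted p = 2.55e-07) in SEG, -0.98 ± 0.06 (adjusted p = 4.03e-11) in Sox17 and -0.31 ± 0.06 (adjusted p = 0.000217) in Erg cells. At day 7 it was -0.83 ± 0.06 (adjusted p = 3.76e-10) in Sox17 and -0.48 ± 0.06 (adjusted p = 1.47e-06) in Erg cells. The SEG value at day 7 was 0.18 ± 0.06 (adjusted p = 0.0171), a 1.13-fold difference. It lost its call without SEG day 7 replicate 3 (0.17, adjusted p = 0.0563), without control day 7 replicate 2 (0.17, adjusted p = 0.0549) and when the 6 libraries were fitted alone (adjusted p = 0.0630). The SEG effect itself differed between day 7 and day 3, by 0.73 ± 0.08 (adjusted p = 5.24e-06). Genes annotated on the opposite strand, Gm37804 and Gm48008, cover 4.82% and 7.60% of the Tgfb3 exons.

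**Figure D2:**
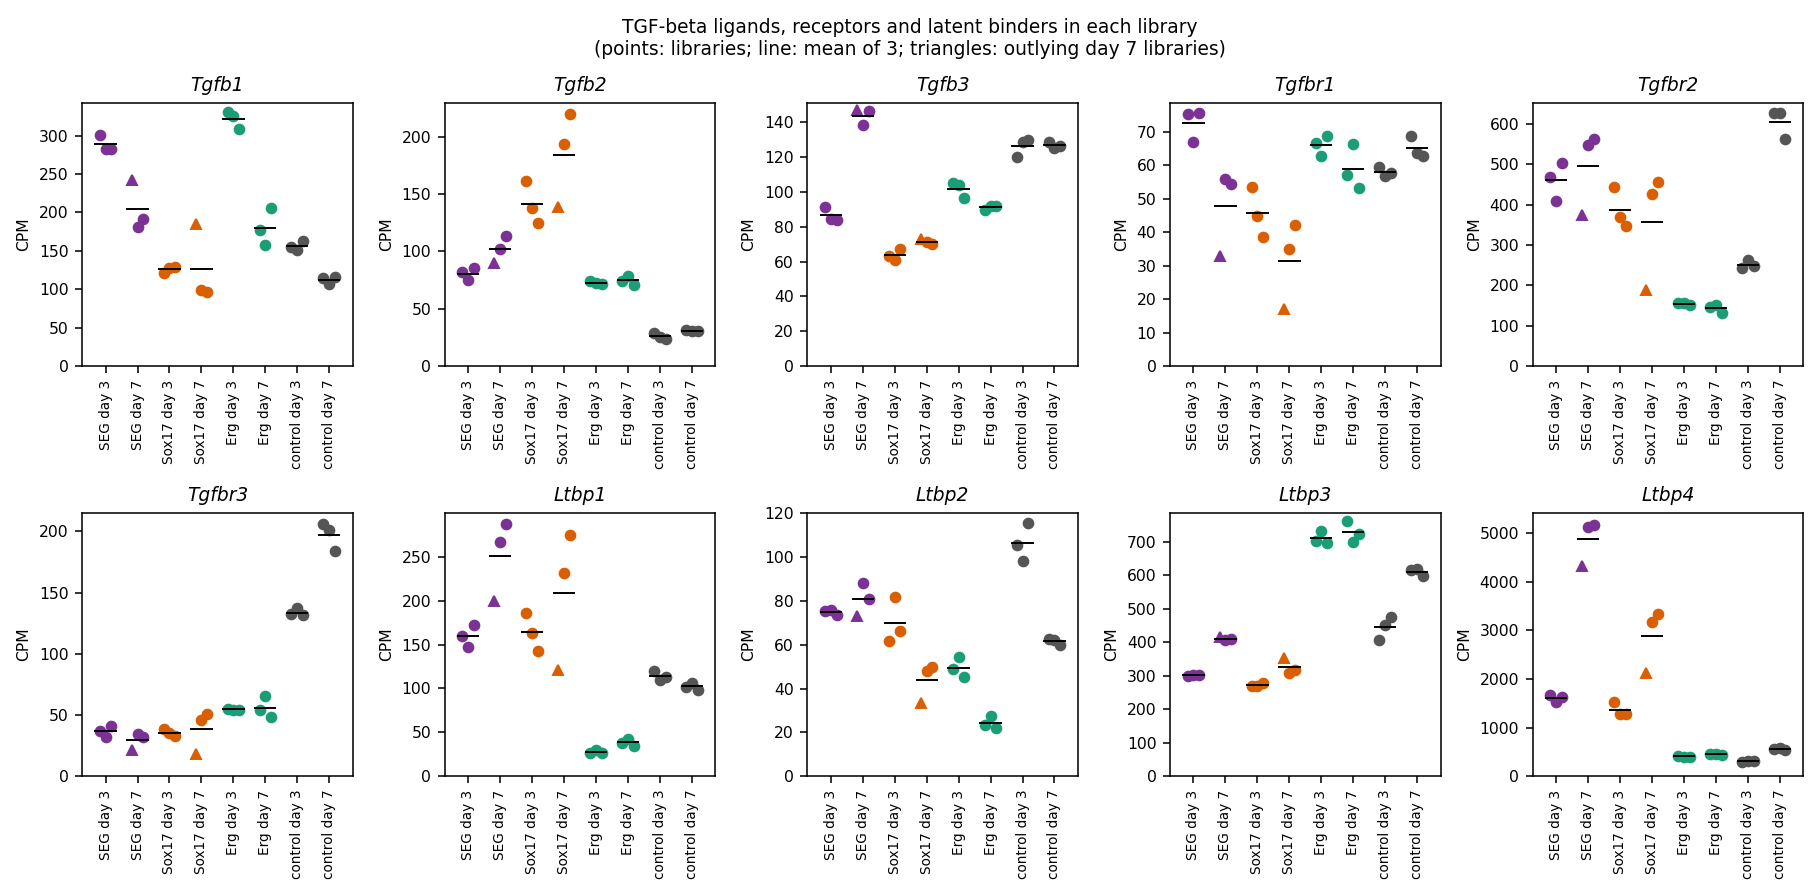
CPM (y axis, from 0) of each of the 10 genes in every library of the 8 groups (x axis), with a point per library, a line for the mean of 3, and a triangle for each of the 2 outlying day 7 libraries. The Ltbp4 panel shows SEG libraries at 4332 to 5171 CPM and control libraries at 544 to 571 CPM at day 7, and the Tgfb2 panel shows every factor library above every control library.

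Tgfbr1 (ENSMUSG00000007613, chr4:47353222-47414931), the type I receptor kinase, passed the test in 1 of the 6 comparisons with control, fewer than any other of the 10 genes. At day 3 Tgfbr1 was 75.3, 67.1 and 75.7 CPM in the SEG libraries, 53.4, 44.99 and 38.5 CPM in the Sox17 libraries and 66.8, 62.6 and 68.8 CPM in the Erg libraries, against 59.5, 56.7 and 57.8 CPM in the control libraries. At day 7 Tgfbr1 was 32.99, 55.8 and 54.3 CPM in the SEG libraries, 17.1, 34.9 and 42.0 CPM in the Sox17 libraries and 57.2, 66.3 and 53.2 CPM in the Erg libraries, against 68.7, 63.8 and 62.8 CPM in the control libraries. The Sox17 libraries were the lowest at day 3, and at day 7 they overlapped SEG replicate 1. The SEG libraries were above control at day 3 and below it at day 7. The Sox17 value at day 7 was the one that passed, at -1.06 ± 0.23 (adjusted p = 0.000590), and without both outlying libraries it was -0.73 (adjusted p = 4.25e-06). At day 3 the log2 change was 0.33 ± 0.23 (adjusted p = 0.281) in SEG, -0.34 ± 0.23 (adjusted p = 0.252) in Sox17 and 0.19 ± 0.23 (adjusted p = 0.538) in Erg cells. Fits of the 6 libraries compared at day 3 gave adjusted p = 0.000238, 0.00968 and 0.000465 for these differences, with the spread taken from those libraries alone and not from all 8 groups. At day 7 the log2 change was -0.45 ± 0.23 (adjusted p = 0.119) in SEG and -0.14 ± 0.22 (adjusted p = 0.622) in Erg cells.

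Tgfbr2 (ENSMUSG00000032440, chr9:116084293-116175360), the type II receptor that binds the ligand, was higher in SEG and Sox17 and lower in Erg cells at day 3. At day 3 Tgfbr2 was 468, 409 and 503 CPM in the SEG libraries, 443, 369 and 348 CPM in the Sox17 libraries and 156, 157 and 151 CPM in the Erg libraries, against 243, 262 and 247 CPM in the control libraries. At day 7 Tgfbr2 was 373, 548 and 562 CPM in the SEG libraries, 189, 427 and 456 CPM in the Sox17 libraries and 146, 153 and 131 CPM in the Erg libraries, against 626, 627 and 563 CPM in the control libraries. The control libraries themselves were 2.41-fold higher at day 7 than at day 3 (1.27 ± 0.22, adjusted p = 0.000145), while the Erg libraries stayed lowest on both days. The log2 change at day 3 was 0.88 ± 0.22 (adjusted p = 0.00275) in SEG, 0.62 ± 0.22 (adjusted p = 0.0258) in Sox17 and -0.70 ± 0.22 (adjusted p = 0.0122) in Erg cells. At day 7 it was -0.29 ± 0.22 (adjusted p = 0.297) in SEG, -0.76 ± 0.22 (adjusted p = 0.00582) in Sox17 and -2.08 ± 0.22 (adjusted p = 2.13e-07) in Erg cells. The change of the effect between the days passed the test for each factor, at -1.17 ± 0.31 (adjusted p = 0.0146) for SEG, -1.39 ± 0.31 (adjusted p = 0.00371) for Sox17 and -1.39 ± 0.31 (adjusted p = 0.00279) for Erg. These 3 changes share the control libraries.

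The Sox17 call for Tgfbr2 at day 3 was lost without Sox17 day 3 replicate 1 (0.51, adjusted p = 0.108) and without control day 3 replicate 1 (0.60, 0.0733), replicate 2 (0.66, 0.0511) or replicate 3 (0.61, 0.0677). Without Sox17 day 7 replicate 1 the Sox17 value at day 7 was -0.46 (adjusted p = 0.00594), and with the 6 libraries fitted alone it was not called (adjusted p = 0.124). The change of the SEG effect was -0.96 without SEG day 7 replicate 1 (adjusted p = 0.0502).

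Tgfbr3 (ENSMUSG00000029287, chr5:107106570-107289629) encodes betaglycan, a co-receptor that presents the ligand, the product of Tgfb2 above all, to Tgfbr2, and it was lower in every factor group. At day 3 Tgfbr3 was 37.1, 32.2 and 41.0 CPM in the SEG libraries, 38.5, 35.6 and 32.5 CPM in the Sox17 libraries and 55.1, 54.2 and 54.3 CPM in the Erg libraries, against 132, 138 and 131 CPM in the control libraries. At day 7 Tgfbr3 was 21.0, 34.7 and 32.3 CPM in the SEG libraries, 18.0, 46.0 and 50.9 CPM in the Sox17 libraries and 54.3, 65.6 and 48.0 CPM in the Erg libraries, against 206, 201 and 184 CPM in the control libraries. No library with a factor reached the level of any control library. The log2 change in SEG cells was -1.86 ± 0.25 (adjusted p = 5.17e-06) at day 3 and -2.75 ± 0.26 (adjusted p = 3.13e-08) at day 7. In Sox17 cells it was -1.91 ± 0.25 (adjusted p = 3.32e-06) and -2.37 ± 0.26 (adjusted p = 1.72e-07), and in Erg cells -1.29 ± 0.25 (adjusted p = 0.000241) and -1.82 ± 0.25 (adjusted p = 6.02e-06). The Erg libraries had the highest levels among the factors at day 3, at 54.5 ± 0.470 CPM, against 36.7 ± 4.43 CPM in SEG and 35.5 ± 3.02 CPM in Sox17 libraries (mean ± SD, n = 3 each). Tgfb2 and its co-receptor gene moved in opposite directions in all 3 conditions. Another annotated gene of the same strand, Gm43422, shares 4.54% of the Tgfbr3 exons.

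Ltbp1 (ENSMUSG00000001870, chr17:75005568-75392512), which binds latent TGF-beta and places it on fibronectin and fibrillin fibres, was higher in Sox17 cells on both days and in SEG cells at day 7, and lower in Erg cells on both days. At day 3 Ltbp1 was 159, 147 and 172 CPM in the SEG libraries, 186, 164 and 142 CPM in the Sox17 libraries and 26.5, 30.3 and 26.8 CPM in the Erg libraries, against 119, 109.9 and 113 CPM in the control libraries. At day 7 Ltbp1 was 199, 267 and 287 CPM in the SEG libraries, 121, 231 and 275 CPM in the Sox17 libraries and 38.0, 42.9 and 34.4 CPM in the Erg libraries, against 102, 107 and 98.5 CPM in the control libraries. The Erg libraries were below all others on both days, and the SEG libraries above control on both. The log2 change in Erg cells was -2.03 ± 0.21 (adjusted p = 9.76e-08) at day 3 and -1.41 ± 0.20 (adjusted p = 8.95e-06) at day 7. In SEG cells it was 0.48 ± 0.20 (adjusted p = 0.0584) at day 3 and 1.30 ± 0.20 (adjusted p = 2.05e-05) at day 7. The day 3 value passed the threshold in a fit of those 6 libraries alone (adjusted p = 8.28e-06). In Sox17 cells it was 0.53 ± 0.20 (adjusted p = 0.0398) at day 3 and 1.03 ± 0.20 (adjusted p = 0.000202) at day 7. The Sox17 call at day 3 was lost without Sox17 day 3 replicate 1 (0.42, adjusted p = 0.151) or replicate 2 (0.53, 0.0788) and without control day 3 replicate 1, 2 or 3 (0.56, 0.50 and 0.52, adjusted p = 0.0682, 0.105 and 0.0935).

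Ltbp2 (ENSMUSG00000002020, chr12:84783212-84876532), the family member that does not bind latent TGF-beta and takes part in microfibril assembly, was lower in all factor groups except SEG at day 7. At day 3 Ltbp2 was 75.4, 75.7 and 73.6 CPM in the SEG libraries, 61.7, 81.6 and 66.5 CPM in the Sox17 libraries and 48.9, 54.6 and 45.1 CPM in the Erg libraries, against 105, 98.2 and 115 CPM in the control libraries. At day 7 Ltbp2 was 73.2, 88.0 and 80.8 CPM in the SEG libraries, 33.2, 48.2 and 49.9 CPM in the Sox17 libraries and 23.5, 27.2 and 22.1 CPM in the Erg libraries, against 62.6, 62.2 and 60.03 CPM in the control libraries. The Erg libraries were again the lowest of each day. The log2 change at day 3 was -0.51 ± 0.13 (adjusted p = 0.00430) in SEG, -0.60 ± 0.13 (adjusted p = 0.000950) in Sox17 and -1.10 ± 0.13 (adjusted p = 1.1e-06) in Erg cells. At day 7 it was 0.39 ± 0.13 (adjusted p = 0.0222) in SEG, -0.49 ± 0.13 (adjusted p = 0.00389) in Sox17 and -1.34 ± 0.14 (adjusted p = 9.5e-08) in Erg cells. Control cells had less Ltbp2 at day 7 than at day 3 (-0.79 ± 0.13, adjusted p = 0.000123), and the SEG effect on Ltbp2 at day 7 differed from that at day 3 by 0.89 ± 0.19 (adjusted p = 0.00279). The SEG call at day 7 was lost without SEG day 7 replicate 2 (0.32, adjusted p = 0.0942) and without control day 7 replicate 2 or 3 (0.40 and 0.37, adjusted p = 0.0502 and 0.0661). Without Sox17 day 7 replicate 1 the Sox17 value at day 7 was -0.33 (adjusted p = 0.0145), and with the 6 libraries fitted alone it was not called (adjusted p = 0.0770). An antisense gene, D030025P21Rik, covers 9.34% of the Ltbp2 exons.

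Ltbp3 (ENSMUSG00000024940, chr19:5740904-5758532), which escorts latent TGF-beta out of the cell, was the latent binder that was higher with Erg and lower with SEG and Sox17 on both days. At day 3 Ltbp3 was 300.5, 301 and 302 CPM in the SEG libraries, 270.1, 269.7 and 279 CPM in the Sox17 libraries and 703, 733 and 697 CPM in the Erg libraries, against 408, 453 and 475 CPM in the control libraries. At day 7 Ltbp3 was 417, 408 and 410.3 CPM in the SEG libraries, 353, 308 and 316 CPM in the Sox17 libraries and 762, 699.9 and 725 CPM in the Erg libraries, against 617, 619 and 597 CPM in the control libraries. On both days the Erg libraries were above, and the SEG and Sox17 libraries below, every control library. The log2 change in Erg cells was 0.67 ± 0.06 (adjusted p = 4.4e-08) at day 3 and 0.25 ± 0.06 (adjusted p = 0.00287) at day 7. In SEG cells it was -0.56 ± 0.06 (adjusted p = 5.6e-07) and -0.57 ± 0.06 (adjusted p = 3.85e-07), and in Sox17 cells -0.71 ± 0.06 (adjusted p = 2.07e-08) and -0.91 ± 0.07 (adjusted p = 3.77e-10).

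Ltbp4 (ENSMUSG00000040488, chr7:27305136-27337692), known for elastic fibre assembly as well as for binding the latent product of Tgfb1, showed the largest changes of the 10 genes in SEG cells. At day 3 Ltbp4 was 1661, 1526 and 1629.9 CPM in the SEG libraries, 1519, 1285 and 1274 CPM in the Sox17 libraries and 410.2, 404 and 404 CPM in the Erg libraries, against 288, 311 and 312 CPM in the control libraries. At day 7 Ltbp4 was 4332, 5127 and 5171 CPM in the SEG libraries, 2129, 3169 and 3331 CPM in the Sox17 libraries and 455, 451 and 436 CPM in the Erg libraries, against 562, 571 and 544 CPM in the control libraries. All SEG and Sox17 libraries stood far above all control libraries, and the Erg libraries were above control at day 3 and below it at day 7. Ltbp4 was 5.29-fold higher in SEG than in control cells at day 3 (2.40 ± 0.13, adjusted p = 4.55e-12) and 8.73-fold at day 7 (3.13 ± 0.13, adjusted p = 7.7e-14). In Sox17 cells the fold was 4.48 at day 3 (2.16 ± 0.12, adjusted p = 1.77e-11) and 5.15 at day 7 (2.36 ± 0.13, adjusted p = 3.67e-12). The SEG effect grew between the days by a log2 value of 0.72 ± 0.17 (adjusted p = 0.00655), while control cells also had more Ltbp4 at day 7 than at day 3 (0.88 ± 0.12, adjusted p = 1.03e-05).

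In Erg cells the Ltbp4 change was 0.42 ± 0.12 (adjusted p = 0.00684) at day 3 and -0.32 ± 0.12 (adjusted p = 0.0323) at day 7. The change of the Erg effect was -0.74 ± 0.17 (adjusted p = 0.00354). The day 7 call was lost without any single Erg replicate 1, 2 or 3 (-0.33, -0.33, -0.30) or control replicate 1, 2 or 3 (-0.32, -0.31, -0.34) of that day, with an adjusted p of 0.0504 to 0.0889. It was also lost with RLE scaling and with no filter on low counts (adjusted p = 0.0571 and 0.0982).

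**Figure D3:**
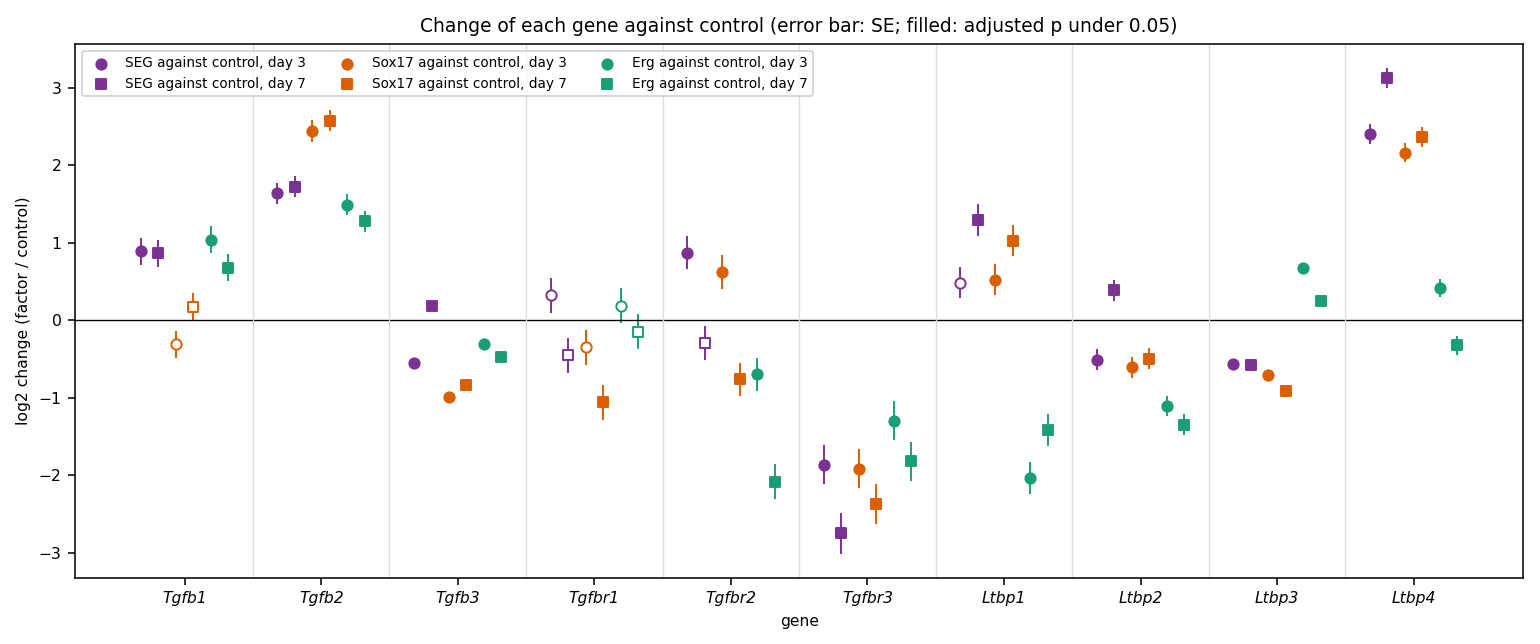
Change of each of the 10 genes (x axis) against control as a log2 value (y axis) for SEG, Sox17 and Erg at day 3 and day 7, with SE as error bar and filled points where the adjusted p was under 0.05. Ltbp4 has the highest points in SEG cells, 2.40 at day 3 and 3.13 at day 7, Tgfbr3 is below 0 in all 6 comparisons, and Ltbp1 is above 0 for SEG and Sox17 and below 0 for Erg.

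Leaving out both outlying libraries, replicate 1 of SEG day 7 and of Sox17 day 7, changed none of the 20 calls of the 10 genes against control at day 7 in those conditions. The log2 changes in SEG cells were then 0.76 for Tgfb1, 1.84 for Tgfb2, 0.20 for Tgfb3, -0.20 for Tgfbr1, -0.09 for Tgfbr2, -2.52 for Tgfbr3, 1.47 for Ltbp1, 0.49 for Ltbp2, -0.54 for Ltbp3 and 3.24 for Ltbp4. In Sox17 cells they were -0.17 for Tgfb1, 2.78 for Tgfb2, -0.81 for Tgfb3, -0.73 for Tgfbr1, -0.42 for Tgfbr2, -1.99 for Tgfbr3, 1.34 for Ltbp1, -0.29 for Ltbp2, -0.93 for Ltbp3 and 2.57 for Ltbp4. The sign differed from the values with all libraries for Tgfb1 in Sox17 cells alone, which passed the test in neither. Between SEG and Sox17 cells at day 7, Tgfbr2 was then higher in SEG (0.33, adjusted p = 0.00708).

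Counted over the 10 genes, 4 rose and 4 fell in SEG cells at day 3 (called were 40.2% of all genes tested, 20% higher and 20.2% lower). In Sox17 cells at day 3 also 4 rose and 4 fell (40.4% of all genes tested, 20.8% higher and 19.6% lower), and in Erg cells 4 rose and 5 fell (46.1% of all genes tested, 22.6% higher and 23.5% lower). At day 7, 6 rose and 2 fell in SEG cells (44.3% of all genes tested, 22.5% higher and 21.8% lower). In Sox17 cells at day 7, 3 rose and 6 fell (54.5% of all genes tested, 29.5% higher and 25% lower), and in Erg cells 3 rose and 6 fell (48.5% of all genes tested, 23.7% higher and 24.8% lower). The median log2 change of the 10 genes was 0.41, -0.33 and -0.06 at day 3 and 0.28, -0.63 and -0.40 at day 7 in SEG, Sox17 and Erg cells. Over all genes the 6 medians were between -0.02 and 0.05. The comparisons of a day share its 3 control libraries, so their values are given side by side and not as independent counts. Among the 10 genes Tgfb2 was the one called higher in all 6 comparisons, and Tgfbr3 the one called lower in all 6. The share of all genes called the same way in all 6 is not given here.

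With all libraries fitted, fewer of these genes differed between SEG and Sox17 cells than between SEG and Erg cells. The difference between these counts was not tested, and at day 7 its direction depended on the libraries used. At day 3, 4 of the 10 genes differed between SEG and Sox17 cells, 3 higher and 1 lower in SEG (28.3% of all genes tested, 14% higher and 14.2% lower). Between SEG and Erg cells 6 differed, 4 higher and 2 lower in SEG (51% of all genes tested, 25.7% higher and 25.3% lower). Between Sox17 and Erg cells 9 differed, 5 higher and 4 lower in Sox17 (55.3% of all genes tested, 28.4% higher and 26.8% lower). At day 7, 7 genes differed between SEG and Sox17 cells, 6 higher and 1 lower (39.9% of all genes tested, 18.8% higher and 21.2% lower), or 3 genes when those 6 libraries were fitted alone. The share over all genes in that fit of 6 libraries is not given here. For SEG against Erg the count was 8, 6 higher and 2 lower (49.4% of all genes tested, 24.7% higher and 24.8% lower), and for Sox17 against Erg 9, 5 higher and 4 lower (55% of all genes tested, 29.1% higher and 25.9% lower). With all libraries, the shares over all genes ran in the same order. Fits without 1 library called 6 to 9 of the 10 genes for SEG against Sox17 at day 7 (4798 to 7229 over all genes). For SEG against Erg they called 8 (6507 to 7399 over all genes). Without both outlying libraries, all of the 10 but Ltbp1 (0.13, adjusted p = 0.329) were called for SEG against Sox17. For SEG against Erg all but Tgfb1 and Tgfbr1 were then called.

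Ltbp1 and Ltbp4 had the largest differences between SEG and Erg cells among the 10 genes. Ltbp1 was higher in SEG than in Erg cells by a log2 value of 2.52 ± 0.21 (adjusted p = 4.29e-09) at day 3 and 2.71 ± 0.21 (adjusted p = 1.54e-09) at day 7. For Ltbp4 the values were 1.98 ± 0.12 (adjusted p = 5.07e-11) and 3.45 ± 0.13 (adjusted p = 3.05e-14). Tgfbr2 was higher in SEG than in Erg cells as well, by 1.57 ± 0.22 (adjusted p = 5.4e-06) and 1.79 ± 0.22 (adjusted p = 1.18e-06). Ltbp3 was lower, at -1.24 ± 0.07 (adjusted p = 4.01e-12) and -0.82 ± 0.07 (adjusted p = 1.89e-09). Tgfb1 was higher in SEG than in Sox17 cells by 1.20 ± 0.18 (adjusted p = 2.21e-05) at day 3 and 0.69 ± 0.17 (adjusted p = 0.00362) at day 7, and that last value was 1.07 (adjusted p = 3.47e-08) without Sox17 day 7 replicate 1. It was not called when the 6 libraries of day 7 were fitted alone (adjusted p = 0.214). Between SEG and Erg cells the Tgfb1 difference was -0.15 ± 0.17 (adjusted p = 0.493) at day 3 and 0.18 ± 0.17 (adjusted p = 0.404) at day 7. Tgfb3 was higher in SEG than in Sox17 cells on both days (0.44 ± 0.06, adjusted p = 8.01e-06 and 1.01 ± 0.06, adjusted p = 5.61e-11). It was higher than in Erg cells at day 7 (0.66 ± 0.06, adjusted p = 1.36e-08) but lower at day 3 (-0.24 ± 0.06, adjusted p = 0.00232). For Tgfbr3 the difference between SEG and Sox17 cells at day 7 was -0.38 ± 0.25 (adjusted p = 0.235), and -0.53 (adjusted p = 0.000611) without both outlying libraries.

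Between the days, Ltbp4 rose in SEG cells (1.60 ± 0.12, adjusted p = 7.88e-09) and Sox17 cells (1.08 ± 0.12, adjusted p = 1.38e-06) as well as in control cells. The Erg value was 0.14 ± 0.12 (adjusted p = 0.406). Tgfb3 rose by 0.73 ± 0.06 (adjusted p = 1.66e-08) in SEG cells, and in control cells its value was 0.01 ± 0.06 (adjusted p = 0.964). Ltbp1 rose by 0.65 ± 0.20 (adjusted p = 0.0173) in SEG cells, and Ltbp2 fell in Erg cells (-1.03 ± 0.14, adjusted p = 8.46e-06) and Sox17 cells (-0.68 ± 0.13, adjusted p = 0.000698). Tgfb1 fell in Erg cells (-0.84 ± 0.18, adjusted p = 0.00108). In all, 4 of the 10 genes were higher and 1 lower at day 7 than at day 3 in SEG cells (27.2% of all genes tested, 14.3% higher and 12.9% lower), and 4 higher and 1 lower in Sox17 cells (29.5% of all genes tested, 16.6% higher and 12.9% lower). In Erg cells 3 were lower (30% of all genes tested, 15.6% higher and 14.4% lower), and in control cells 3 were higher and 2 lower (29.5% of all genes tested, 16.1% higher and 13.4% lower). Without both outlying libraries 8 of the 10 genes were called in SEG cells and 8 in Sox17 cells, and the share over all genes in that fit is not given here. Leaving out 1 library gave 3283 to 3669 calls over all genes in SEG cells, against 4024 with all libraries. In Sox17 cells it gave 3191 to 6021, against 4368. Added in SEG cells were Tgfb2 at 0.44 (adjusted p = 0.000285), Tgfbr1 at -0.37 (adjusted p = 0.00611) and Tgfbr2 at 0.30 (adjusted p = 0.00809). Added in Sox17 cells were Tgfb1 at -0.35 (adjusted p = 0.000765), Tgfbr3 at 0.46 (adjusted p = 0.00100) and Ltbp1 at 0.64 (adjusted p = 1.3e-05).

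Several day calls near the threshold were lost when 1 library was left out, and those of SEG and Sox17 cells held without both outlying libraries. The fall of Tgfb1 in SEG cells (-0.50 ± 0.17, adjusted p = 0.0391) was lost without SEG day 3 replicate 1, 2 or 3 or SEG day 7 replicate 2 or 3 (-0.52 to -0.42, adjusted p = 0.0737 to 0.151). It was -0.61 (adjusted p = 6.76e-07) without both outlying libraries. That in control cells (-0.47 ± 0.18, adjusted p = 0.0476) was lost without any one of the 6 control libraries (-0.50 to -0.44, adjusted p = 0.0798 to 0.135). The rise of Ltbp1 in SEG cells was lost without SEG day 3 replicate 1 or 2 or SEG day 7 replicate 2 or 3 (0.55 to 0.65, adjusted p = 0.0507 to 0.0823). It was 0.82 (adjusted p = 3.89e-07) without both outlying libraries. The small change of Tgfb3 in Sox17 cells (0.16 ± 0.06, adjusted p = 0.0457) was lost without Sox17 day 3 replicate 1 or 2 or Sox17 day 7 replicate 1 (0.13 to 0.15, adjusted p = 0.0576 to 0.184). It was 0.17 (adjusted p = 0.0189) without both outlying libraries. That in Erg cells (-0.16 ± 0.06, adjusted p = 0.0469) was lost without Erg day 3 replicate 1 or 2 or any Erg day 7 library (-0.17 to -0.12, adjusted p = 0.0829 to 0.255). Tgfb2 in Sox17 cells (0.38 ± 0.13, adjusted p = 0.0332) lost its call without Sox17 day 3 replicate 2 or 3 or Sox17 day 7 replicate 2 or 3 (0.25 to 0.36, adjusted p = 0.0644 to 0.143). It was 0.57 (adjusted p = 1.38e-05) without both outlying libraries.

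Whether the effect against control differed between the days was tested as an interaction. It did for 4 genes with SEG, 3 towards higher and 1 towards lower (11.9% of all genes tested, 6.09% higher and 5.77% lower). With Sox17 it did for 1 gene, towards lower (14.3% of all genes tested, 7.61% higher and 6.66% lower), and with Erg for 3 genes, all towards lower (19.7% of all genes tested, 9.34% higher and 10.4% lower). Tgfbr2 was the gene common to the 3 conditions. With Erg the other two were Ltbp3 (-0.42 ± 0.09, adjusted p = 0.00245) and Ltbp4. Leaving out 1 library gave 1394 to 1575 calls over all genes for SEG, against 1756 with all libraries, and 1592 to 3199 for Sox17, against 2113. Without both outlying libraries, a fit whose share over all genes is not given here, 7 of the 10 genes were called for SEG and 4 for Sox17. Ltbp1 was among them in both. Its values were then 0.99 (adjusted p = 5.75e-06) and 0.81 (adjusted p = 6.54e-05), against 0.81 ± 0.28 (adjusted p = 0.0682) and 0.50 ± 0.28 (adjusted p = 0.255) with all libraries.

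Contractile genes, which the pathway is known to drive, rose more often than they fell in SEG and Sox17 cells on both days, and fell more often in Erg cells at day 3. Of a list of 18 smooth muscle and contractile genes at day 3, 7 rose and 3 fell in SEG cells (20% and 20.2% of all genes). In Sox17 cells 12 rose and 4 fell (20.8% and 19.6%), and in Erg cells 3 rose and 10 fell (22.6% and 23.5%). At day 7, 13 rose and 3 fell in SEG cells (22.5% and 21.8% of all genes). In Sox17 cells 13 rose and 3 fell (29.5% and 25%), and in Erg cells 6 rose and 3 fell (23.7% and 24.8%). In brackets here and below are the shares of all genes tested that rose and that fell, from the fit with all libraries. The median log2 change of the list was 0.31, 0.85 and -0.71 at day 3 and 1.09, 1.64 and 0.12 at day 7 in SEG, Sox17 and Erg cells. Without both outlying libraries 16 of the 18 genes were called in SEG and 18 in Sox17 cells at day 7, against 16 and 16 with all libraries. When the 6 libraries compared were fitted alone, 17 were called in SEG cells at day 3. The shares over all genes in these fits are not given here. Leaving out 1 library gave 5755 to 6091 calls over all genes in SEG cells at day 7, against 6557 with all libraries. In Sox17 cells at day 7 it gave 7171 to 9027, against 8062. Of 6 mural cell markers (pericytes and smooth muscle) 5 were tested, and of these 3 rose and 2 fell in SEG cells, 1 rose and 2 fell in Sox17 cells, and 2 rose and 2 fell in Erg cells at day 7 (shares of all genes as above for day 7). Their summed level was 624 to 831 CPM in SEG, 196 to 339 CPM in Sox17, 415 to 495 CPM in Erg and 826 to 919 CPM in control libraries at that day. Their part in the contractile values was not tested.

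Acta2, smooth muscle actin, was 642, 836 and 632 CPM in the SEG, 1124, 1461 and 1674 CPM in the Sox17 and 134, 146 and 139 CPM in the Erg libraries at day 3, against 300.1, 260.4 and 287 CPM in the control libraries. At day 7 Acta2 was 1270.3, 1006 and 1071 CPM in the SEG, 2988, 1804 and 1806 CPM in the Sox17 and 202, 253 and 245 CPM in the Erg libraries, against 70.5, 58.3 and 65.5 CPM in the control libraries. The SEG and Sox17 libraries lay above control on both days, and the Erg libraries below control at day 3 and above it at day 7. Against control, Acta2 changed by 1.32 ± 0.18 (adjusted p = 5.17e-06) in SEG, 2.33 ± 0.19 (adjusted p = 2.4e-09) in Sox17 and -1.02 ± 0.18 (adjusted p = 9.23e-05) in Erg cells at day 3. At day 7 it changed by 4.11 ± 0.20 (adjusted p = 1.03e-12) in SEG, 5.09 ± 0.21 (adjusted p = 7.59e-14) in Sox17 and 1.85 ± 0.18 (adjusted p = 6.82e-08) in Erg cells. Control cells had less Acta2 at day 7 than at day 3 (-2.12 ± 0.18, adjusted p = 2.81e-08), whereas SEG cells (0.67 ± 0.18, adjusted p = 0.00747), Sox17 cells (0.63 ± 0.18, adjusted p = 0.0110) and Erg cells (0.74 ± 0.18, adjusted p = 0.00327) had more. In control cells 11 of the 18 contractile genes were lower and 2 higher at day 7 than at day 3 (13.4% of all genes tested were lower and 16.1% higher).

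Tagln, which encodes an actin-binding protein of smooth muscle, rose with Acta2 in SEG and Sox17 cells (4.17 ± 0.24, adjusted p = 1.44e-11 and 5.10 ± 0.25, adjusted p = 1.16e-12 at day 7). It was higher in Erg than in control cells on both days (0.84 ± 0.21, adjusted p = 0.00281 and 3.35 ± 0.23, adjusted p = 4.07e-10). Mean Tagln at day 3 and day 7 was 415 and 267 CPM in Erg and 232 and 26.2 CPM in control libraries. In SEG libraries it was 427 and 472 CPM, and in Sox17 libraries 852 and 899 CPM. The larger changes at day 7 thus came with a lower control level, and Tagln itself was lower in Erg libraries at day 7 than at day 3. Cnn1, the smooth muscle calponin, averaged 1.51 ± 0.446 CPM in SEG, 62.1 ± 27.1 CPM in Sox17, 0.185 ± 0.156 CPM in Erg and 0.127 ± 0.0499 CPM in control libraries at day 7 (SD, n = 3 each). Myh11, the smooth muscle myosin heavy chain, stayed low, at 9.53 ± 1.61 CPM in SEG, 2.02 ± 0.415 CPM in Sox17, 6.46 ± 1.10 CPM in Erg and 0.213 ± 0.0871 CPM in control libraries at day 7. It was called higher in all 6 comparisons, with log2 changes of 1.14 (adjusted p = 0.00711) to 5.41 (adjusted p = 6.42e-12), the first at day 3 and the second at day 7 in SEG cells. Mylk, the myosin light chain kinase, fell, at -2.35 ± 0.28 (adjusted p = 7.19e-07) in SEG and -3.30 ± 0.29 (adjusted p = 8.68e-09) in Sox17 cells at day 7. With the outlying libraries left out, the day 7 changes in SEG and Sox17 cells were 4.04 and 4.84 for Acta2, 4.06 and 4.71 for Tagln and -2.02 and -3.00 for Mylk.

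Set side by side at day 3, Sox17 cells had the highest Acta2 (1419.8 ± 278 CPM) and the highest Tgfb2 (141 ± 18.6 CPM), with Tgfb1 at 126 ± 4.25 CPM. Erg cells had the highest Tgfb1 (322 ± 11.4 CPM), the lowest Ltbp1 (27.9 ± 2.12 CPM) and the lowest Acta2 (139.6 ± 6.02 CPM), with Tgfb2 at 72.8 ± 1.40 CPM against 25.9 ± 2.70 CPM in control cells (mean ± SD, n = 3 each). SEG cells lay between Sox17 and Erg cells for Acta2 (703 ± 115 CPM), Tgfb1 (289 ± 10.2 CPM) and Tgfb2 (80.7 ± 5.17 CPM). For Tgfb1 and Tgfb2 they overlapped no Erg library at that day, but neither difference was called (adjusted p = 0.493 and 0.369). At day 7 Sox17 cells again had the highest Acta2 (2199 ± 683 CPM) and Tgfb2 (184 ± 41.6 CPM). Erg cells again had the lowest Ltbp1 (38.4 ± 4.28 CPM), but their Acta2 (233 ± 27.6 CPM) was above control (64.8 ± 6.14 CPM). The highest mean Tgfb1 at day 7 was in SEG cells (205 ± 33.0 CPM), overlapping Erg cells (180 ± 24.1 CPM). These are descriptions of 4 conditions and no test of a relation between the genes.

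**Figure D4:**
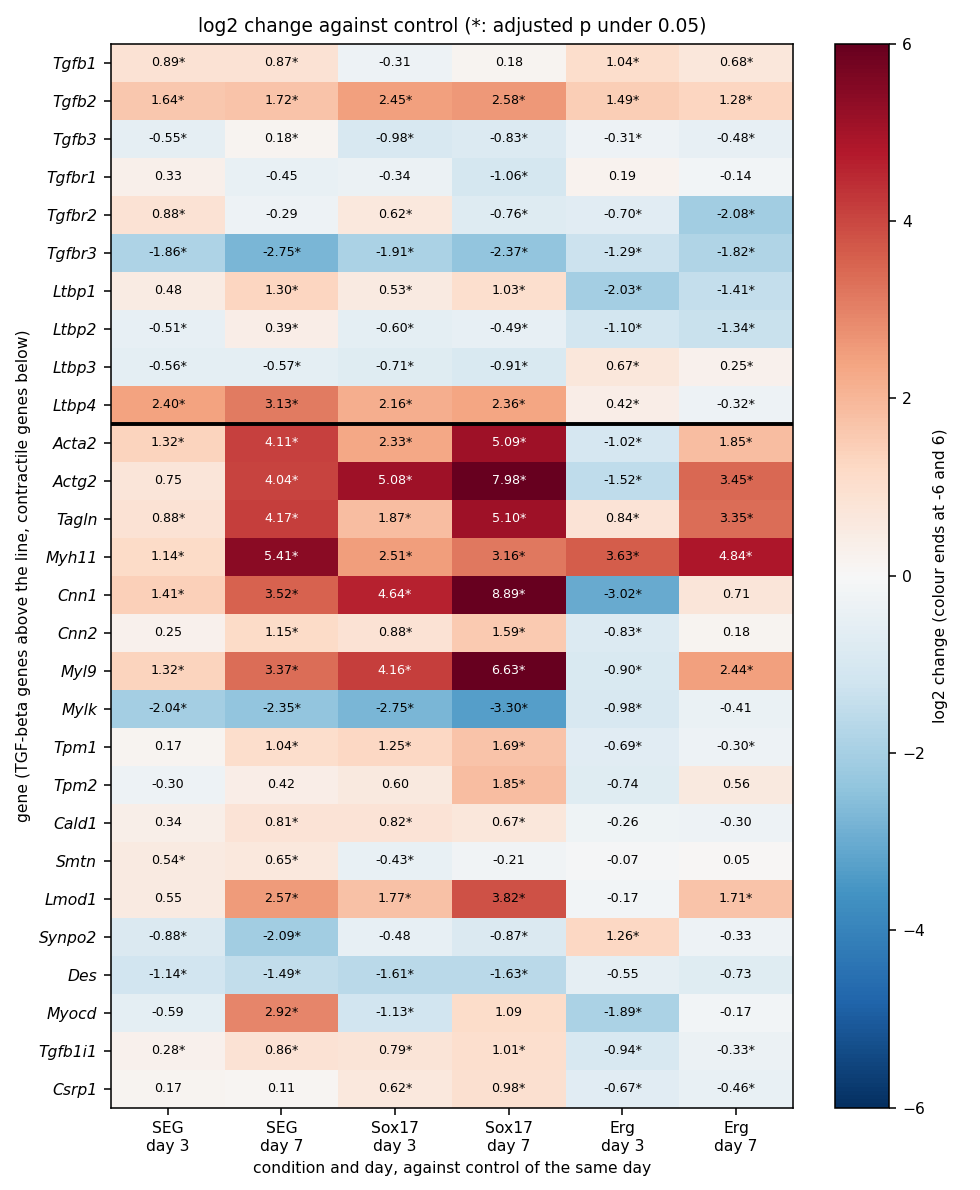
Log2 change against control (colour, ends at -6 and 6) of the 10 TGF-beta genes and the 18 contractile genes (rows) for SEG, Sox17 and Erg at day 3 and day 7 (columns), with a star where the adjusted p was under 0.05. Acta2 spans -1.02 in Erg cells at day 3 and 5.09 in Sox17 cells at day 7, and in the columns of the Erg cells Ltbp1, Tgfbr2 and Tgfbr3 are below 0 on both days.

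Of 17 partners and activators that hold or release the latent complex, 16 were tested. At day 3, 5 rose and 7 fell in SEG cells (20% and 20.2% of all genes). In Sox17 cells 2 rose and 9 fell (20.8% and 19.6%), and in Erg cells 5 rose and 6 fell (22.6% and 23.5%). At day 7, 6 rose and 6 fell in SEG cells (22.5% and 21.8% of all genes). In Sox17 cells 2 rose and 9 fell (29.5% and 25%), and in Erg cells 4 rose and 9 fell (23.7% and 24.8%). The day 7 counts without the outlying libraries were 9 up and 6 down in SEG cells and 4 up and 9 down in Sox17 cells. The shares over all genes in that fit are not given here. The median log2 changes were -0.35, -0.78 and -0.22 at day 3 and 0.35, -0.72 and -0.57 at day 7 in SEG, Sox17 and Erg cells. Of the 6 integrin subunits on the list 5 were tested. Among them 2 rose and 1 fell in SEG cells, 1 rose and 3 fell in Sox17 cells and 2 rose and 2 fell in Erg cells at day 3 (shares of all genes as above for day 3). Itgb8, whose integrin with the alpha v subunit releases the growth factor, was 55.1, 50.8 and 60.5 CPM in SEG, 392, 349 and 255 CPM in Sox17 and 4.01, 4.98 and 5.45 CPM in Erg libraries at day 3, against 19.3, 18.9 and 17.4 CPM in control libraries. All Sox17 and SEG libraries were above control and all Erg libraries below, with log2 changes of 1.58 ± 0.39 (adjusted p = 0.00291) in SEG, 4.16 ± 0.43 (adjusted p = 1.14e-07) in Sox17 and -1.93 ± 0.42 (adjusted p = 0.000868) in Erg cells. Itgb3 had a different order: it was 125, 106 and 127 CPM in SEG, 20.3, 20.5 and 20.7 CPM in Sox17 and 198, 205 and 197 CPM in Erg libraries, against 44.5, 46.6 and 43.8 CPM in control libraries. It was higher with Erg (2.15 ± 0.07, adjusted p = 1.16e-14) and SEG (1.41 ± 0.07, adjusted p = 3.19e-12) and lower with Sox17 (-1.13 ± 0.07, adjusted p = 8.58e-11). Itgb5, another beta subunit, was lower in all 3 conditions (-1.10 ± 0.08, adjusted p = 3.61e-10 in SEG, -1.81 ± 0.08, adjusted p = 2.46e-13 in Sox17 and -0.64 ± 0.08, adjusted p = 7.98e-07 in Erg cells).

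Fbn2, a microfibril protein gene, rose with Sox17 at day 3 to 63.7 ± 12.5 CPM, against 3.04 ± 0.212 CPM in control libraries (4.39 ± 0.38, adjusted p = 7.64e-09). Adamtsl2, whose product binds Ltbp1 and fibrillin, fell in all 6 comparisons, to 15.2 ± 1.67 CPM in SEG, 19.6 ± 4.66 CPM in Sox17 and 20.5 ± 1.73 CPM in Erg libraries at day 7, against 274 ± 16.6 CPM in control libraries. Mfap4, another microfibril gene, fell as well, with log2 changes of -4.66 in SEG, -3.59 in Sox17 and -4.43 in Erg cells at day 7 (largest adjusted p = 8.22e-14). Nrros, which anchors latent TGF-beta on macrophages and microglia, was 12.8, 11.9 and 10.9 CPM in Erg and 2.38, 2.09 and 2.12 CPM in control libraries at day 7 (2.43 ± 0.18, adjusted p = 1.44e-09), the group in which the macrophage markers were high, and their part in this value was not tested.

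Among 16 co-receptor, SMAD and regulator genes at day 3, 3 rose and 5 fell in SEG cells (20% and 20.2% of all genes). In Sox17 cells 5 rose and 6 fell (20.8% and 19.6%), and in Erg cells 5 rose and 4 fell (22.6% and 23.5%). At day 7, 7 rose and 5 fell in SEG cells (22.5% and 21.8% of all genes). In Sox17 cells 5 rose and 7 fell (29.5% and 25%), and in Erg cells 3 rose and 7 fell (23.7% and 24.8%). The day 7 counts without the outlying libraries were 8 up and 5 down in SEG cells and 8 up and 5 down in Sox17 cells. The shares over all genes in that fit are not given here. Their median log2 changes were -0.04, -0.12 and 0.07 at day 3 and 0.03, 0.02 and -0.23 at day 7 in SEG, Sox17 and Erg cells. Acvrl1 and Eng, the endothelial type I receptor and co-receptor of the family, were higher with Erg at day 3 (1.32 ± 0.12, adjusted p = 1.75e-08 and 0.80 ± 0.11, adjusted p = 4.54e-06) and lower with Sox17 (-1.08 ± 0.12, adjusted p = 2.8e-07 and -0.95 ± 0.11, adjusted p = 4.65e-07). In SEG cells at day 3 Eng was lower (-0.79 ± 0.11, adjusted p = 5.69e-06) and Acvrl1 was not called (-0.22 ± 0.12, adjusted p = 0.155). Smad3, a mediator of the TGF-beta signal, fell in SEG cells on both days (-0.85 ± 0.14, adjusted p = 7.37e-05 and -1.12 ± 0.15, adjusted p = 2.42e-06) and in Sox17 cells (-1.38 ± 0.15, adjusted p = 1.64e-07 and -1.27 ± 0.15, adjusted p = 3.49e-07). The feedback inhibitors Smad7 and Pmepa1 were lower in Erg cells on both days, Smad7 at -0.85 and -0.80 and Pmepa1 at -1.02 and -1.03 (largest adjusted p = 9.29e-05). In SEG cells Pmepa1 was higher at day 7 (0.54 ± 0.09, adjusted p = 5.98e-05), with 0.06 ± 0.09 (adjusted p = 0.641) at day 3. Smad7 in SEG cells was 0.01 ± 0.14 (adjusted p = 0.972) at day 3 and 0.64 ± 0.14 (adjusted p = 0.000778) at day 7. Both were also higher in Sox17 cells at day 7, Pmepa1 at 0.52 (adjusted p = 8.18e-05) and Smad7 at 0.38 (adjusted p = 0.0275). Without both outlying libraries these values were 0.40 and 0.64. In fits without 1 library the adjusted p of Smad7 in Sox17 cells at day 7 reached 0.101.

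The 18 TGF-beta response genes moved in both directions in every comparison. At day 3, 2 rose and 11 fell in SEG cells (20% and 20.2% of all genes). In Sox17 cells 2 rose and 11 fell (20.8% and 19.6%), and in Erg cells 4 rose and 9 fell (22.6% and 23.5%). At day 7, 7 rose and 4 fell in SEG cells (22.5% and 21.8% of all genes). In Sox17 cells 4 rose and 10 fell (29.5% and 25%), and in Erg cells 3 rose and 12 fell (23.7% and 24.8%). The day 7 counts without the outlying libraries were 9 up and 7 down in SEG cells and 6 up and 11 down in Sox17 cells. The shares over all genes in that fit are not given here. Their median log2 changes were -0.56, -0.82 and -0.47 at day 3 and 0.17, -0.38 and -0.73 at day 7 in SEG, Sox17 and Erg cells. The list shares Smad7, Pmepa1, Skil, Tgif1 and Ldlrad4 with the regulators. Ccn2, a matricellular target, was lower in all conditions at day 3 (-0.57 ± 0.08, adjusted p = 4.24e-06 in SEG, -0.90 ± 0.08, adjusted p = 6.8e-09 in Sox17 and -1.01 ± 0.08, adjusted p = 1.56e-09 in Erg cells). At day 7 Ccn2 was 1553, 1489.8 and 1478 CPM in SEG, 843, 1038 and 1022 CPM in Sox17 and 1957, 2066 and 2069 CPM in Erg libraries, against 1466, 1517 and 1552 CPM in control libraries, with SEG libraries overlapping control libraries, Sox17 libraries below and Erg libraries above them. The log2 change was -0.00 ± 0.08 (adjusted p = 0.974) in SEG, -0.64 ± 0.08 (adjusted p = 5.37e-07) in Sox17 and 0.43 ± 0.08 (adjusted p = 0.000107) in Erg cells. Tgfbi, an extracellular matrix target, was at 3.74 ± 1.09 CPM in SEG, 2.08 ± 0.559 CPM in Sox17 and 25.6 ± 5.66 CPM in Erg libraries at day 7, against 119.9 ± 4.78 CPM in control libraries.

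For each of the 10 genes the 3 others with the most alike pattern were found by Pearson's r of log2 CPM over the 24 libraries among 9137 genes with a mean of at least 10 CPM. The libraries share groups and depth, and r is given as a description. Of these, 2 or 3 are named for each gene. They were Pqlc1 (0.965), Fxyd5 (0.934), Tpm3 (0.923) for Tgfb1, Spire1 (0.954), Atp13a2 (0.944) for Tgfb2 and Tmed10 (0.931), Itgb5 (0.889), Rcsd1 (0.884) for Tgfb3. For the receptors they were Wasf2 (0.953), Antxr2 (0.949), Ebf2 (0.936) for Tgfbr1, Ccng2 (0.970), Znrf2 (0.955) for Tgfbr2 and Cyp1b1 (0.988), Osmr (0.971), Fam13c (0.968) for Tgfbr3. For the latent binders they were Nceh1 (0.971), Patz1 (0.964), Arnt2 (0.958) for Ltbp1, Col1a1 (0.943), Fstl1 (0.938), Nln (0.937) for Ltbp2, Plod1 (0.984), Cyp4v3 (0.976), Ggt5 (0.976) for Ltbp3 and Cerk (0.963), Sema3g (0.962), Irak2 (0.957) for Ltbp4. Itgb5, a latent complex activator, and Col1a1, a fibroblast collagen gene, are on lists used here.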

How the data were processed

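Bulk RNA sequencing counts from 24 libraries were analysed. Gene counts were deposited by the authors as 1 table of 35727 Ensembl genes, not normalized, with whole numbers in every library. The submitters' processing notes name Salmon, DESeq2 and mm10. Versions, the annotation, the strand setting and the role of each tool are, in the sources used here, not given. Columns were matched to libraries through their labels, and 0 value columns were left unused. Symbols and positions came from GENCODE M21, which named 35493 of the genes, and lengths are merged exon lengths.

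Counts were filtered with filterByExpr (minimum count 10), scaled by TMM and fitted with edgeR 4.0.16 in R 4.3.3 (glmQLFit over all 8 groups with 1 shared spread, glmQLFTest, Benjamini-Hochberg over 14804 genes, calls at adjusted p under 0.05). SE is the size of the log2 change divided by the square root of F. CPM divides by TMM-scaled library totals. Alternatives were a fit of the groups compared alone, a replicate block, scaling by RLE, testing without the filter, leaving out each library or both outlying ones, and DESeq2 1.42.0. The scripts were tested on simulated counts. The labels do not say whether replicate numbers pair libraries, and the main fit used no block. Replicates of a group differed by more than counting noise (chi-square per degree of freedom of at least 2.87), so none was merged.

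The 10 genes and all lists (contractile genes, latent complex partners and activators, co-receptors with SMADs and regulators, response genes, and markers of fibroblasts, endothelium, macrophages, mural cells, cardiomyocytes and epicardium) were chosen with earlier results of these data known. Named beside the 10 were up to 4 called genes with the largest change per list and comparison, the genes Acta2, Tagln, Myh11, Cnn1, Smad7, Pmepa1 and Ccn2, and the 3 most alike genes of each member. Others are given beside them for contrast, after their values were seen. A few genes that these rules name are not reported here.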

Additional observations from a re-analysis of the deposited data

Results flagged for a closer look

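The results below were picked out because the effect against control differed between day 7 and day 3 by edgeR's interaction test. For SEG, the log2 change of the effect was 0.73 for Tgfb3, -1.17 for Tgfbr2, 0.89 for Ltbp2 and 0.72 for Ltbp4, and among the contractile genes 2.79 for Acta2, 3.29 for Tagln and 4.27 for Myh11. For the response genes it was 0.63 for Smad7, 0.48 for Pmepa1 and 0.56 for Ccn2. Smad7 lost its call in 11 of the 12 fits without 1 library, and Pmepa1 without SEG day 3 replicate 2 (0.44, adjusted p = 0.0540).

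For Sox17 the change was -1.39 for Tgfbr2, 2.76 for Acta2, 3.22 for Tagln, 4.25 for Cnn1 and 0.59 for Pmepa1. For Erg it was -1.39 for Tgfbr2, -0.42 for Ltbp3 and -0.74 for Ltbp4 among the TGF-beta genes, and 2.87 for Acta2, 2.51 for Tagln, 3.72 for Cnn1 and 1.43 for Ccn2 among the others. Without Erg day 7 replicate 3 the value for Cnn1 was 2.62 (adjusted p = 0.245). The 3 conditions share the control libraries. In those control libraries Acta2 changed by -2.12 ± 0.18 (adjusted p = 2.81e-08), Tagln by -3.15 ± 0.23 (adjusted p = 2.51e-09) and Tgfbr2 by 1.27 ± 0.22 (adjusted p = 0.000145) between day 7 and day 3.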

How the results depend on the processing

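The count of called genes among the 10 stayed within 1.5 times its value in every comparison with control under all alternatives run. Fitting only the groups compared gave 3 called for SEG against Sox17 at day 7, 1 for day 7 against day 3 in Sox17 and 9 in control cells, and 7 and 7 for the change of the SEG and of the Erg effect. That fit called 17 contractile genes in SEG cells at day 3 and 5 for the change of the Sox17 effect. Without both outlying libraries 8 and 8 of the 10 genes were called between the days in SEG and Sox17 cells, and 7 and 4 for the change of the SEG and Sox17 effects. The shares over all genes in the fits of the groups alone and without both outlying libraries are not given here. Leaving out 1 library at a time gave 3 to 6 and 3 to 7 called between the days in SEG and Sox17 cells, and 1 to 4 for the change of the Sox17 effect. Over all genes these fits gave 3283 to 3669, 3191 to 6021 and 1592 to 3199 calls. The cause was not tested.

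Small values changed sign. Without both outlying libraries Tgfb1 was -0.17 in Sox17 against control at day 7 and -0.35 between the days in Sox17 cells, and Tgfbr2 0.21. With no filter on low counts the change of the SEG effect was 0.011 for Tgfb1, that of the Erg effect 0.0151 for Pmepa1 (0.0209 for the groups alone), and Tgfb3 between the days in control cells -0.0114 (-0.00759 for the groups alone). Under RLE scaling, no filter, both libraries left out and DESeq2, the change of the SEG effect for Ltbp3 was 0.00558, 0.0298, 0.0231 and 0.00649, and Ccn2 in SEG against control at day 7 0.00471, 0.0461, 0.00841 and 0.00487.

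Leaving out 1 library at a time gave ranges that cross 0. For Tgfb1 they were -0.20 to 0.39 in Sox17 against control at day 7, -0.37 to 0.19 between the days in Sox17 cells and -0.12 to 0.0583 for the change of the SEG effect. For Tgfb2 they were -0.00144 to 0.0741 between the days in Erg cells and -0.00151 to 0.21 for the change of the SEG effect, and for Tgfb3 -0.031 to 0.0265 between the days in control cells. Between the days Tgfbr2 was -0.31 to 0.19 in Sox17 cells, and Tgfbr3 -0.14 to 0.44 in Sox17 and -0.0926 to 0.14 in Erg cells. SEG against Sox17 gave -0.0383 to 0.14 for Tgfbr3 at day 3, and -0.13 to 0.0606 at day 3 and -0.0104 to 0.51 at day 7 for Ltbp1. The change of the SEG effect was -0.055 to 0.0531 for Ltbp3 and that of the Erg effect -0.0355 to 0.0546 for Pmepa1. Against control, Cnn1 was -0.39 to 1.07 in Erg cells at day 7, Smad7 -0.0187 to 0.0477 in SEG cells at day 3 and Ccn2 -0.0268 to 0.0152 in SEG cells at day 7.

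The labels do not say whether replicate numbers pair libraries. The median correlation of deviations was 0.00276 over 84 pairs with the same number (-0.42 to 0.69, 9 over 0.1). It was 0.00561 over 168 pairs with different numbers (-0.63 to 0.48, 21 over 0.1). A median over all pairs cannot exclude that some libraries were paired. With the replicate block, Tgfb1 between the days in Sox17 cells was -0.0171, and the day calls of Tgfb3 were lost in Sox17 cells (adjusted p = 0.0598) and Erg cells (adjusted p = 0.0613). The block changed no other call of the 10 genes. The lowest value of the 10 genes was 17.1 CPM, whereas Cnn1 and Myh11 in control cells rest on few counts, and p-values cover only the spread between libraries.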

Other observations

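Markers of other cell types that a heart preparation can hold were summed per library. Cardiomyocyte markers summed to 9.52 to 15.9 CPM in SEG, 23.1 to 73.4 CPM in Sox17, 10.5 to 13.4 CPM in Erg and 75.1 to 94.5 CPM in control libraries at day 7. Epicardial markers summed to 3.65 to 4.24 CPM in SEG, 2.87 to 5.49 CPM in Sox17, 15.0 to 16.1 CPM in Erg and 10.4 to 12.7 CPM in control libraries.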
